A study of Mus musculus with 5 samples.

Results

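The genes described here are the angiopoietins Angpt1 and Angpt2, their receptor Tek and the growth factor Vegfa, in mouse co-cultures that form osteoclasts. They were found by gene symbol in the platform annotation. Each of the 4 genes had 1 probe set, out of 8251 genes with 1 symbol and 12488 probe sets on the array. Angpt1 and Angpt2 were chosen by their intensities in these same arrays, for opposite patterns, so their values are a description, and nothing is supported with them.

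Haematopoietic cells were grown for 6 days together with ST2-T stromal cells, in medium holding dexamethasone and 1,25-dihydroxyvitaminD3, and all cells of a dish were collected together. The groups were Fos+/+ spleen cells, Fos-/- spleen cells, Fos+/+ bone marrow cells, Fos-/- spleen cells infected with a deltaNFAT virus and Fos-/- spleen cells infected with a GFP virus. The last is the virus control of the fourth. Fos protein is part of AP-1, a transcription factor needed to form osteoclasts, and GFP is a fluorescent reporter protein. The labels do not give the age or strain of the mice, whether animals were pooled, the dose of either virus or what the deltaNFAT construct holds. Stroma, hormones and culture time were the same in every group. Each group had 1 array, so there is no replicate error, no test and no p-value, and every fold compares 2 arrays. In RNA from whole dishes, fewer cells of a type and less RNA per cell cannot be told apart.

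Angiopoietins are secreted ligands of the receptor tyrosine kinase Tek, also called Tie2, which sits mainly on endothelial cells and on some haematopoietic cells. Angpt1 activates Tek and is made largely by mesenchymal and perivascular cells, whereas Angpt2 can block or activate Tek depending on the setting. Vegfa drives the growth and permeability of blood vessels through the receptors Flt1 and Kdr, and in bone it also acts on osteoclast precursors, which carry Flt1.

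The values are linear intensities scaled to a common mean. An intensity of 19.8, the 40th percentile of all values, served as the floor, and lower values were raised to it before a fold was taken. A gene was called higher or lower when 2 arrays differed at least 2-fold and the brighter one reached 39.6. A fold against an array at the floor is a lower bound. Each array had between 7292 and 7769 probe sets over that floor. The Fos probe set read 849 and 614 in the Fos+/+ spleen and bone marrow arrays and 426 to 607 in the 3 Fos-/- arrays, but the stroma of each dish carries its own Fos, so these values do not check the genotype. The 3-prime to 5-prime ratio of the control probe sets ran from 1.02 to 1.31 for beta-actin and from 0.77 to 0.85 for Gapdh. The arrays also hold negative values. Their 1st percentile lay between -133 and -77.6, so that an intensity under about 90.7, the size of its median over the arrays, lies within the spread of these negative values.

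Angpt1 was dim in both uninfected spleen co-cultures and bright in the other 3. It read 25.8 in Fos+/+ spleen, 25.4 in Fos-/- spleen, 209 in Fos+/+ bone marrow, 262 with deltaNFAT virus and 402 with GFP virus. Bone marrow, the lowest of the 3 bright arrays, was 8.10-fold above Fos+/+ spleen. Both spleen values lie within the spread of the negative values, and with the floor at 90.7 that fold was at least 2.31. The 2 sets of arrays were made from the Angpt1 values themselves, so their separation is no result. The bright set holds Fos+/+ bone marrow and both Fos-/- virus cultures, and the dim set holds spleen of both genotypes. The cause of the split was not tested. Within the bright arrays the differences were smaller, with GFP 1.53-fold over deltaNFAT and deltaNFAT 1.25-fold over bone marrow, neither reaching 2-fold.

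Angpt2 was above the floor in the 2 Fos+/+ arrays and under it in the 3 Fos-/- arrays. It read 93.8 for the spleen and 49.8 for the bone marrow of Fos+/+ mice, 16.3 with GFP virus, 6.90 with deltaNFAT virus and -2.50 in Fos-/- spleen. Fos+/+ spleen was thus at least 4.74-fold over Fos-/- spleen, and bone marrow was at least 2.51-fold over each Fos-/- array, though its value of 49.8 lies under the higher floors of 65.1 and 90.7, where no difference is left. The 3 Fos-/- values lie under the floor and have no order. All 5 values are small for this array. In the Fos+/+ spleen array 118 probe sets read -93.8 or less, the mirror image of the Angpt2 value, and with the floor at 65.1 (the 60th percentile) the Fos+/+ over Fos-/- spleen fold was only 1.44 and lost its call.

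Vegfa was above the floor in every array and, with the floor at 19.8, varied less than either angiopoietin. At a floor of 65.1, which lies under every Vegfa value, Angpt2 spanned only 1.44-fold and so less than Vegfa. Vegfa read 75.5 in Fos+/+ spleen, 107 in Fos-/- spleen, 145 in Fos+/+ bone marrow, 183 with deltaNFAT virus and 184 with GFP virus. As for Angpt1 the 2 uninfected spleen arrays were lowest, but the lowest of the other 3 was only 1.36-fold above the higher spleen array. Neighbours in the order differed by 1.00-fold to 1.41-fold, and only the span from Fos+/+ spleen to the virus arrays, 2.44-fold for GFP, passed 2-fold. The Fos+/+ spleen value, the low end of that span, lies within the spread of the negative values.

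Tek was under the floor in all 5 arrays. It read 10.8 in Fos+/+ spleen, 9.40 in Fos-/- spleen, 18.7 in Fos+/+ bone marrow, 9.50 with deltaNFAT virus and 16.9 with GFP virus. No fold is given for it, since values under the floor have no order. Its probe set does not show whether the receptor was absent or below what the array could measure.

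**Figure D1:**
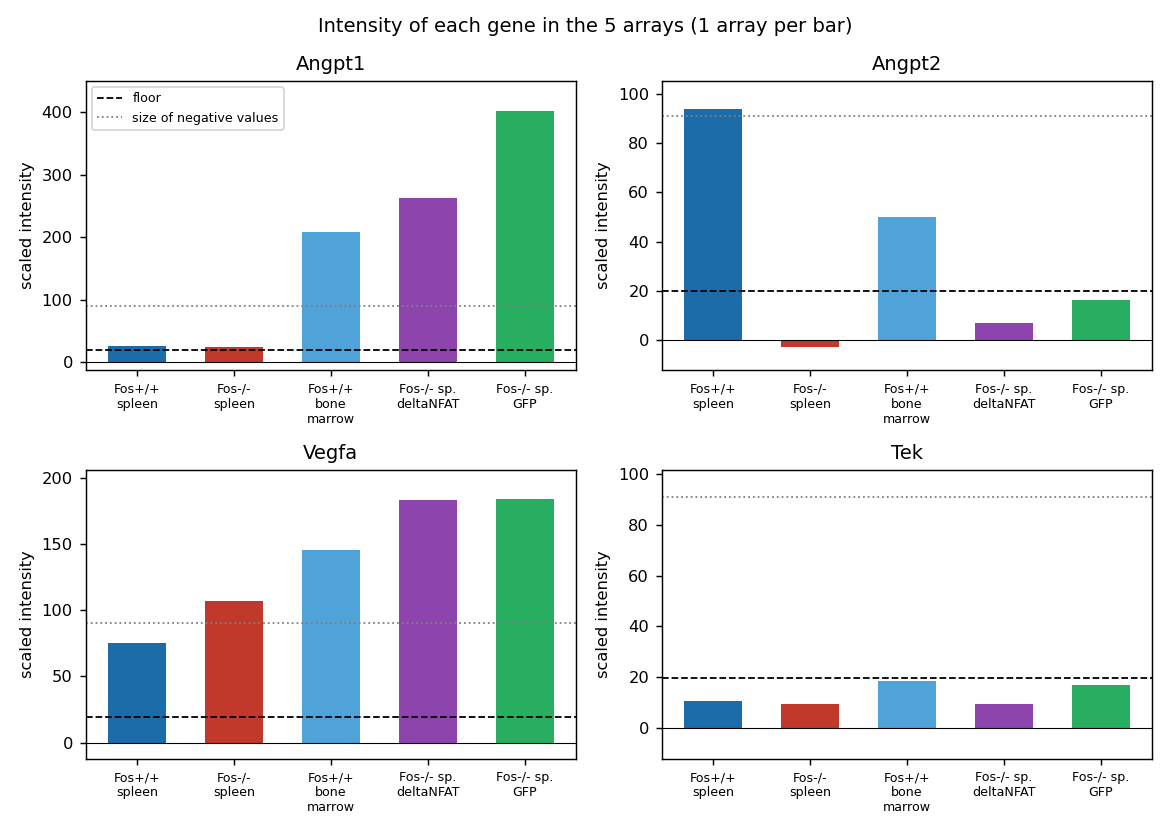
Scaled intensity (linear axis) of Angpt1, Angpt2, Vegfa and Tek in each of the 5 arrays, 1 bar per array and no error bars because each group had 1 array. The dashed line is the floor of 19.8 and the dotted line the size of the negative values, 90.7. Angpt1 stands at 209 to 402 in 3 arrays and near 25 in both uninfected spleen arrays, Angpt2 passes the floor in the 2 Fos+/+ arrays alone, and Tek in none.

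The comparison of Fos+/+ with Fos-/- spleen asks what Fos does in uninfected spleen co-cultures. Of the 4 genes 1, Angpt2, was called higher and 0 lower, while Angpt1 and Tek were not bright enough to be called. Over all genes bright enough 6.57% were called higher and 6.41% lower. As the rule used the Angpt2 values, nothing is read from that count. Vegfa was 1.41-fold lower in Fos+/+ spleen and not called. Angpt1 differed by 1.02-fold between 2 dim values.

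Infection with deltaNFAT virus was compared with GFP virus in Fos-/- spleen cells. Of the 4 genes 0 were called in either direction, but Angpt2 and Tek were not bright enough to be called. Of all genes bright enough 3.57% were called higher and 2.72% lower. Angpt1 was 1.53-fold lower with deltaNFAT. Vegfa read almost the same on both arrays, at a log2 ratio of -0.00. Angpt2 stayed under the floor with either virus, beside 93.8 in Fos+/+ spleen, so no change between the viruses can be read.

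The comparison of GFP virus with no virus, both in Fos-/- spleen, gave the largest difference among the 4 genes. Angpt1 read 402 against 25.4 and was 15.8-fold higher. The dimmer value lies within the spread of the negative values, and the fold was at least 6.17 with the floor at 65.1 and at least 4.43 with the floor at 90.7. Vegfa was 1.72-fold higher and not called. In this comparison 10.4% of genes were called higher and 6.99% lower. With deltaNFAT in place of GFP, Angpt1 was 10.3-fold and Vegfa 1.72-fold over Fos-/- spleen without virus, beside backgrounds of 11% higher and 6.68% lower. Both virus ratios share the uninfected array and its dim Angpt1 value.

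Bone marrow was compared with spleen, both Fos+/+ and uninfected. Angpt1 was 8.10-fold higher in bone marrow and called, at least 3.21-fold with the floor at 65.1 and at least 2.31-fold with the floor at 90.7. Angpt2 was 1.88-fold lower and not called. That fold was 2.19 after quantile normalization, 1.44 at a floor of 65.1 and 1.03 at a floor of 90.7. Vegfa was 1.92-fold higher, also short of 2-fold, and its log2 ratio fell from 0.94 to 0.68 with the floor at 90.7. The backgrounds were 13.1% higher and 7.28% lower, that is 693 and 385 genes, a split that became 525 and 503 after quantile normalization.

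Bone marrow over GFP virus uses neither of the 2 uninfected spleen arrays, though its groups differ in genotype, tissue and virus at once. Angpt2 was at least 2.51-fold higher in bone marrow and called, but not at the higher floors, under which both values lie, while Angpt1 was 1.92-fold lower and Vegfa 1.27-fold lower. In that comparison 9.15% of genes were called higher and 6.09% lower.

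**Figure D2:**
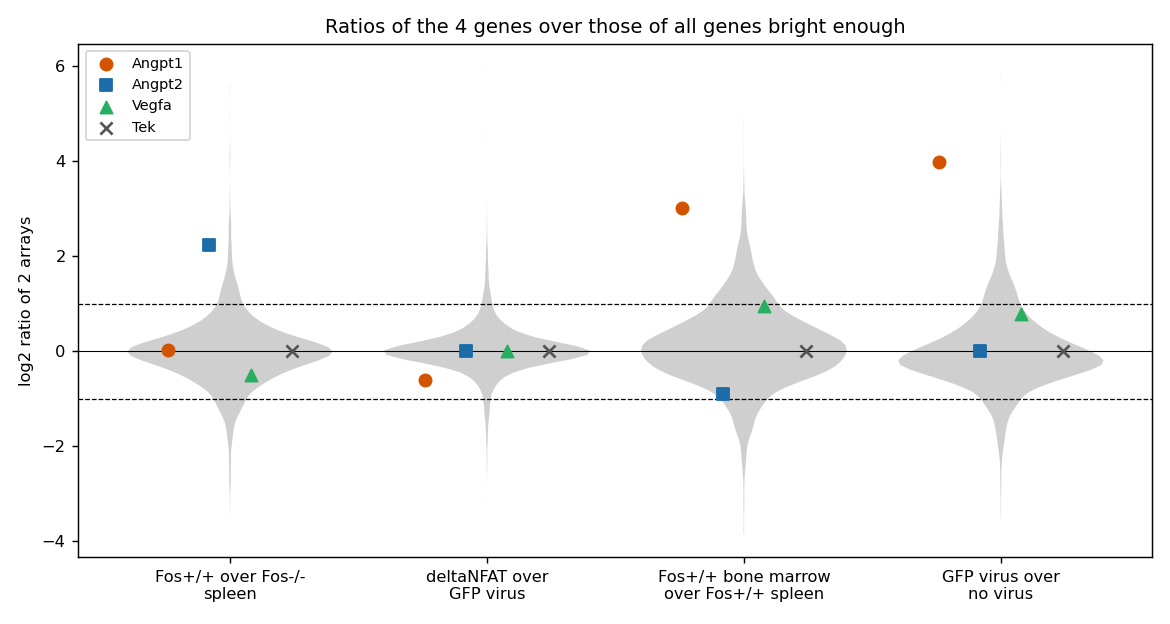
log2 ratio of 2 arrays in 4 comparisons, with grey shapes for the spread over all genes bright enough in each and symbols for the 4 genes; dashed lines mark 2-fold. Angpt1 lies at 3.98 for GFP virus over no virus and 3.02 for bone marrow over spleen, Angpt2 at 2.24 for Fos+/+ over Fos-/- spleen, and Vegfa between the dashed lines throughout. Symbols at 0 for Tek, and for Angpt2 in both virus comparisons, stand for pairs of values under the floor.

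The Angpt1 pattern was shared by many genes of other functions. Of 5575 genes with at least 1 bright array, 226 (4.05%) had bone marrow and both virus arrays each at least 2-fold over both uninfected spleen arrays, and Angpt1 held rank 5 among them by the smallest such fold with the floor at 19.8. The reverse pattern was found in 26 genes (0.466%). This split was set by the values of Angpt1 itself. By the root mean square difference of centred log2 values over the 5 arrays, the genes nearest to Angpt1 among 1817 candidates were Sec62, a protein translocation factor of the endoplasmic reticulum (difference 0.13), the proteasome activator Psme4 (0.28), the translation initiation subunit Eif3a (0.31), the chromatin protein Dek (0.33) and the cytoskeletal septin Septin7 (0.36). Sec62 read -15.9 and 16.1 in the uninfected Fos+/+ and Fos-/- spleen arrays, 184 in bone marrow, 248 with deltaNFAT and 300 with GFP. Septin7 read 84.0 and 57.9 in the same 2 spleen arrays and 636 to 647 in the others. Such genes are active in most cell types. The labels give no date or batch for the arrays, and the part that a shared difference between these 2 sets of arrays has in the Angpt1 values was not tested.

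The Angpt2 pattern, with both Fos+/+ arrays at least 2-fold over all 3 Fos-/- arrays, was rarer. It was found in 50 of the 5575 genes (0.897%), and in 23 (0.413%) in the reverse direction. Angpt2 ranked 28th by the smallest fold with the floor at 19.8. The pattern was set by the values of Angpt2 itself, so its place and rank there are no result. Of the 14 osteoclast markers on the array 10 had the same pattern, among them Ctsk, the protease cathepsin K, and Calcr, the receptor for calcitonin. The nearest genes were the mitotic kinase Aurka (difference 0.12), the small GTPase Rhou (0.15), the pancreatic colipase gene Clps (0.15), the Myc family member Mycl (0.15) and the adipocyte gene Adig (0.16). All 5 were dim. Their highest values, each in Fos+/+ spleen, ran from 82.8 for Rhou to 115 for Clps, and the Clps probe set fell to -129 with GFP virus. The likeness thus rests on values near the floor.

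The nearest genes to Vegfa were Washc2 (difference 0.06), Galnt1, which starts the addition of mucin-type sugars (0.07), Fam91a1 (0.07), the collagen cross-linking enzyme Lox (0.07) and Nudt4 (0.08). Lox, a bright gene of the stroma, read 451 in Fos+/+ spleen, 701 in Fos-/- spleen, 994 in bone marrow, 1105 with deltaNFAT and 1164 with GFP. These genes were picked for their likeness to Vegfa, so that they share its order is no result.

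**Figure D3:**
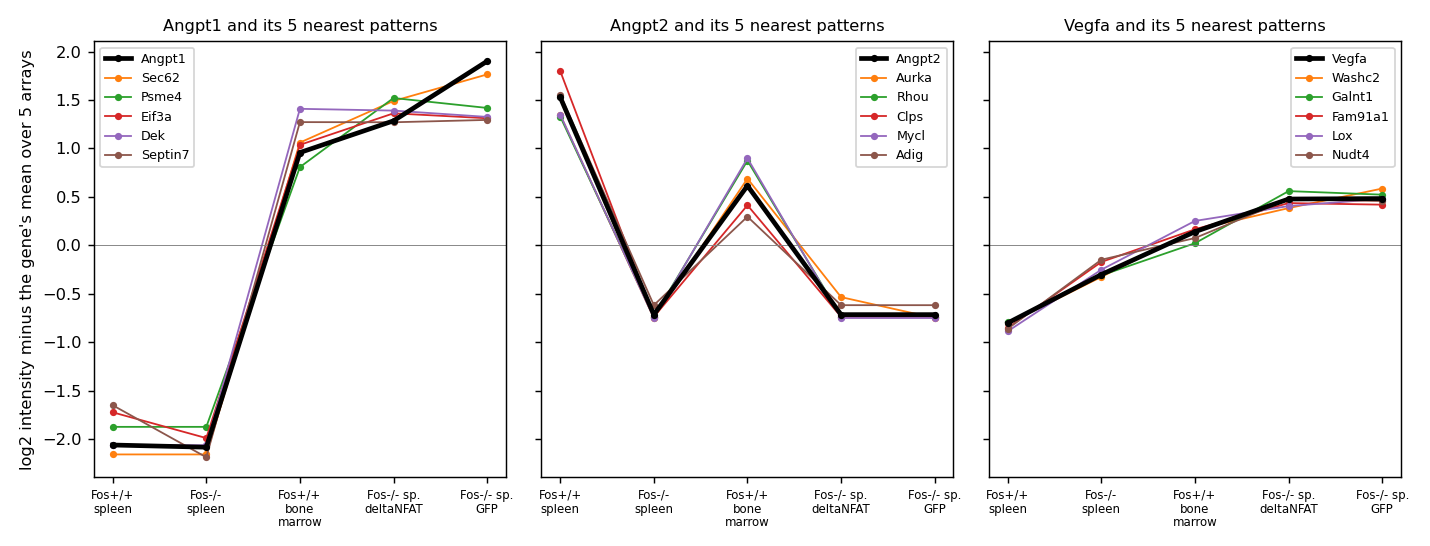
log2 intensity minus each gene's own mean over the 5 arrays, for Angpt1, Angpt2 and Vegfa (black) and the 5 genes nearest to each (colours). Values under the floor were set to it, and the lines only join the arrays for the eye. Angpt1 and its neighbours step up between the 2 spleen arrays and the other 3, Angpt2 and its neighbours are high in the 2 Fos+/+ arrays, and Vegfa rises by smaller steps.

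The receptors of these ligands were dim, apart from Kdr in bone marrow and the co-receptor Nrp1. Tie1, the orphan partner of Tek, read 3.80 or less in 4 arrays and 19.9, just over the floor, in bone marrow. Ptprb, the phosphatase that restrains Tek, was negative in all arrays. Kdr, the main signalling receptor for Vegfa, read 91.3 in Fos+/+ spleen, 80.4 in Fos-/- spleen, 158 in bone marrow, 84.4 with deltaNFAT and 84.3 with GFP. Flt1, the high-affinity VEGF receptor of monocytes and osteoclast precursors, read 22.9, 18.1, 54.5, 24.4 and 37.6 in that order, and Flt4, the receptor for Vegfc and Vegfd, 29.0, 56.1, 70.3, 19.2 and 34.1. All 3 were highest in bone marrow. Flt1 and Flt4 passed 2-fold in bone marrow over Fos+/+ spleen (2.38-fold and 2.42-fold), but both fell short after quantile normalization and at a floor of 65.1.

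Nrp1, a co-receptor that binds Vegfa beside Kdr, had the order of Vegfa at high intensity. It read 239 in Fos+/+ spleen, 347 in Fos-/- spleen, 668 in bone marrow, 733 with deltaNFAT and 879 with GFP. It was 2.80-fold higher in bone marrow than in Fos+/+ spleen and 2.53-fold higher with GFP virus than without virus, and both calls held at every floor and after quantile normalization. The lowest of its 3 high arrays was 1.93-fold over the higher spleen array.

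Other VEGF ligands did not share the order of Vegfa. Vegfb read 161 and 165 in the uninfected Fos+/+ and Fos-/- spleen arrays, 124 in bone marrow, 80.7 with deltaNFAT and 116 with GFP. Vegfd, a ligand of Flt4, read 126, 136, 149, 49.5 and 63.7 in the same order. It was 2.14-fold lower with GFP virus than without virus, opposite in direction to Vegfa, and the call was lost at a floor of 90.7. Placental growth factor, Pgf, a ligand of Flt1, lay between 193 and 322 and was highest in Fos-/- spleen. Vegfc did not exceed 28.3.

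**Figure D4:**
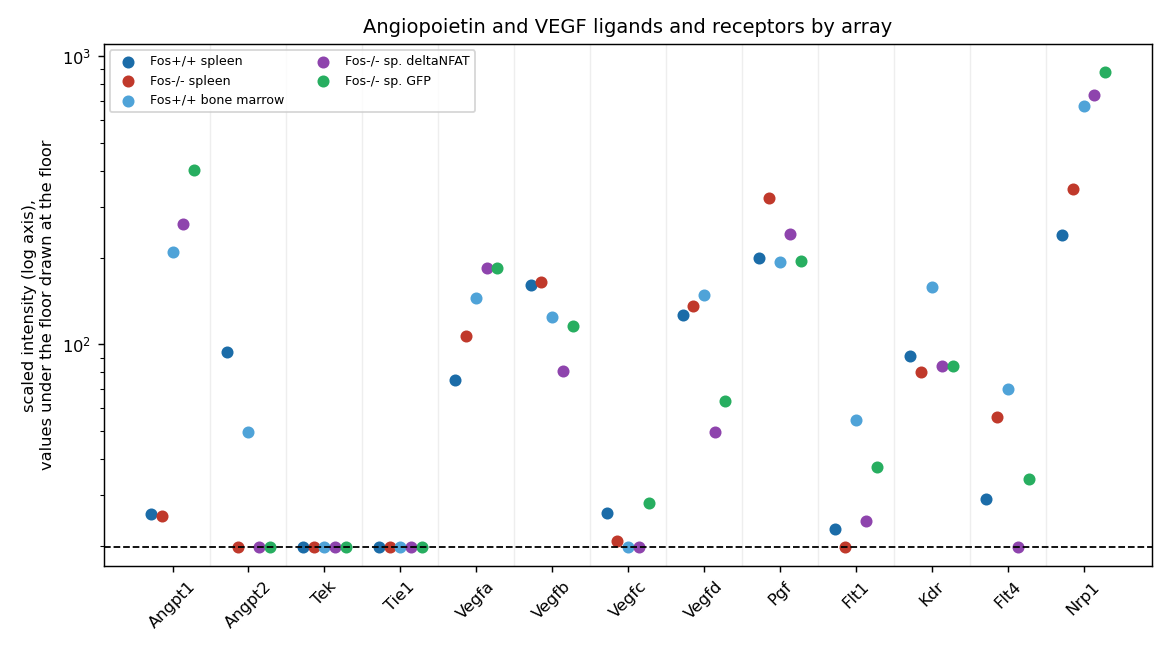
Scaled intensity (log axis) of the angiopoietin and VEGF ligands and receptors, 1 point per array; values under the floor of 19.8 (dashed) are drawn on it. Nrp1 repeats the order of arrays seen for Vegfa, Vegfd is lowest in the 2 virus arrays, and Tek and Tie1 lie on the floor. Heights are comparable within a gene, not between genes, because probe sets differ in brightness.

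The pathway lists are small, and their counts are given beside the share of all genes called. Of 9 VEGF ligands and receptors on the array, 7 were bright enough between Fos+/+ and Fos-/- spleen and 0 were called, where 6.57% of all genes bright enough were called higher and 6.41% lower. The list's median log2 ratio was -0.50 beside -0.03. In bone marrow over spleen 3 of 8 were higher and 0 lower, beside 13.1% and 7.28% of all genes (median 0.87 beside 0.06). The 3 were Nrp1, Flt1 and Flt4, of which Nrp1 alone held after quantile normalization and at a floor of 65.1. In GFP over no virus 1 of 7 was higher and 1 lower, beside 10.4% and 6.99% (median -0.51 beside -0.11). With deltaNFAT over GFP 0 of 6 were called, beside 3.57% and 2.72% (median -0.13 beside -0.00). The angiopoietin and Tie list held 13 genes, of which 6 were bright enough in each comparison. Besides the angiopoietins, the adaptor Shc1 was 2.06-fold lower with GFP virus than without (1.88-fold, and no call, when its probe sets were averaged), and Pik3r1, the regulatory subunit of PI3-kinase, 2.06-fold higher in bone marrow than in spleen, a call lost after quantile normalization. Grb2, another adaptor, read between 111 and 215. The adaptor Grb7, named after its values were seen, was called in 3 comparisons at intensities of 74.9 or less.

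Of 15 signalling genes downstream of the VEGF receptors, 0 of 11 bright enough were called between Fos+/+ and Fos-/- spleen. With deltaNFAT over GFP 0 of 11 were higher and 1 lower (3.57% and 2.72% of all genes), and with GFP over no virus 1 of 11 was higher and 0 lower (10.4% and 6.99%). In bone marrow over spleen 2 of 12 were higher and 1 lower (13.1% and 7.28%). The calls were those of Ppp3ca and Sh2d2a and, in bone marrow, Ppp3cb at 55.3, named after its values were seen and lost after quantile normalization. Ppp3ca, a catalytic calcineurin subunit, was called in bone marrow over spleen (2.37-fold) and GFP over no virus (2.25-fold). It read 120 in Fos+/+ spleen, 146 in Fos-/- spleen, 285 in bone marrow, 351 with deltaNFAT and 328 with GFP. Sh2d2a, an adaptor that binds Kdr, read 126, 124 and 62.6 in the first 3 of these, was under the floor with deltaNFAT and read 116 with GFP. It was at least 5.84-fold lower with deltaNFAT than with GFP, and with the floor at 65.1 the bound was 1.77-fold and no longer a call. Paxillin, Pxn, a focal adhesion adaptor, was highest in Fos+/+ spleen at 190 and between 84.1 and 121 elsewhere.

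Hypoxia is the best known inducer of Vegfa, through the factor Hif1a. In the hypoxia and HIF list 0 of 20 genes bright enough were higher with Fos in the spleen arrays and 3 were lower, where 6.57% and 6.41% of all genes were called. The median log2 ratio was -0.19 beside -0.03 over all genes. The 3 were hexokinase Hk2 (2.76-fold, 1.66-fold when its probe sets were averaged and 1.99-fold at a floor of 65.1), the stress gene Ndrg1 (2.09-fold) and Vhl, at 51.5 or less, which was lost at a floor of 65.1. The last 2 were named after their values were seen. Hif1a itself read 309 in Fos+/+ spleen, 334 in Fos-/- spleen, 660 in bone marrow, 705 with deltaNFAT and 584 with GFP, again lowest in the 2 uninfected spleen arrays. It was 2.14-fold higher in bone marrow than in spleen. The glucose transporter Slc2a1, a target of Hif1a, did not follow it and was highest in Fos-/- spleen at 137 and lowest in bone marrow at 49.6. With deltaNFAT over GFP 0 of 19 genes of the list were called (3.57% of all genes higher and 2.72% lower), in bone marrow over spleen 1 of 19, Hif1a, was higher (13.1%), and with GFP over no virus 1 of 20, Vhl, was lower (6.99%).

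Among other angiogenic ligands, Fgf7, a mesenchymal growth factor for epithelium, was lowest in the 2 uninfected spleen arrays. It read 46.9 in Fos+/+ spleen, 95.5 in Fos-/- spleen, 187 in bone marrow, 178 with deltaNFAT and 276 with GFP, which made it 3.98-fold higher in bone marrow than in spleen (at least 2.06-fold at a floor of 90.7) and 2.89-fold higher with GFP virus than without. Pdgfb, which recruits pericytes, was highest in the 2 Fos+/+ arrays, at 122 in spleen and 93.6 in bone marrow against 41.9 to 57.4 in the Fos-/- arrays, with 2.55-fold between the uninfected spleen arrays, a call lost at a floor of 65.1 (1.87-fold). Pleiotrophin, Ptn, read 79.7 in Fos-/- spleen and 35.9 or less elsewhere, and its calls were lost at the same floor. Of 12 genes of the list bright enough between Fos+/+ and Fos-/- spleen, 2 were higher (Pdgfb and Efnb2) and 2 lower (Fgf7 and Ptn), where 6.57% and 6.41% of all genes were called, and none of the 4 calls held at a floor of 65.1. Efnb2, named after its values were seen, was at 59.7 or less. With deltaNFAT over GFP 1 of 11, Efnb2, was higher and 0 lower (3.57% and 2.72%). In bone marrow over spleen 1 of 11, Fgf7, was higher and 1, Efnb2, lower (13.1% and 7.28%), and Fgf7 was higher and Ptn lower among 11 with GFP over no virus (10.4% and 6.99%).

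Among inhibitors of angiogenesis Col18a1, the source of endostatin, read 228 in Fos+/+ spleen, 104 in Fos-/- spleen, 167 in bone marrow, 112 with deltaNFAT and 82.6 with GFP. Its 2.20-fold difference between Fos+/+ and Fos-/- spleen was the 1 call among 6 genes bright enough there, where 6.57% of all genes were called higher and 6.41% lower. Sparc lay between 467 and 961 and thrombospondin Thbs2 between 50.4 and 98.5. Adamts1, named after its values were seen, was the 1 call of 7 in bone marrow over spleen (13.1% higher and 7.28% lower over all genes), at an intensity of 47.0, and was lost at a floor of 65.1. In the other 2 comparisons 0 of 6 were called. Angptl4, the angiopoietin-like gene on the array, read 86.4 in Fos+/+ spleen, 124 in Fos-/- spleen, 142 in bone marrow, 73.3 with deltaNFAT and 78.3 with GFP. It was not called, at 1.65-fold for bone marrow over spleen, but with probe sets without a suffix that fold was 3.23 and a call.

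Most endothelial markers were close to the floor. Of 17 on the array, 3 reached 79.2 in any array (Kdr, the TGF-beta co-receptor Eng and the transcription factor Sox18). Tek, Cldn5 and Nos3 were under the floor everywhere, and the adhesion molecules Pecam1 and Cdh5 passed it in 1 array each, at 23.2 in Fos-/- spleen and 46.3 in bone marrow. The summed intensity of the list ran from 445 in Fos+/+ spleen to 762 in bone marrow, where Kdr contributed 158. The pericyte and smooth muscle list summed to between 3310 and 4638 and the stromal fibroblast list to between 10223 and 11751, the latter lowest in bone marrow. Neither sum had the order of Angpt1. Among pericyte markers Notch3 read 222 in Fos+/+ spleen, 203 in Fos-/- spleen, 21.5 in bone marrow, 50.4 with deltaNFAT and 41.9 with GFP. It was 10.3-fold lower in bone marrow than in Fos+/+ spleen and 4.85-fold lower with GFP virus than without. Both calls held after quantile normalization and at every floor, at least at 2.45-fold and 2.24-fold. Of 7 list genes bright enough in each, 0 were higher, and 1 and 2 were lower. The relation to Angpt1 was not tested. Within the stromal list Dcn alone had the Angpt2 pattern (0.897% of 5575 bright genes), at 320 in both Fos+/+ arrays and 24.9 or less in the Fos-/- arrays.

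The summed osteoclast markers were highest in the 2 Fos+/+ arrays, as was Angpt2. A few markers of other blood cells had the Angpt1 pattern, which was found in 4.05% of the 5575 genes with at least 1 bright array. The osteoclast list, 14 markers with Src under the floor everywhere, summed to 17274 in Fos+/+ spleen and 12785 in bone marrow, against 2590, 4465 and 2224 in the Fos-/- arrays without virus, with deltaNFAT and with GFP, the split of Angpt2. With deltaNFAT over GFP 7 of 12 osteoclast markers bright enough were higher and 0 lower (3.57% and 2.72% of all genes). Angpt2 was under the floor in both arrays, so whether it changed with them cannot be read. The neutrophil list, 13 markers with Cxcr2 under the floor everywhere, summed to 1828 in Fos+/+ spleen and 3539 in Fos-/- spleen, against 10237 in bone marrow, 5067 with deltaNFAT and 7432 with GFP. The 2 uninfected spleen arrays were thus lowest, as for Angpt1. Of the 13 markers 2, the calprotectin subunit S100a9 and the myeloperoxidase Mpo, had the Angpt1 pattern of 2-fold gaps. In bone marrow over spleen 9 of 11 bright enough were higher and 0 lower (13.1% and 7.28% of all genes). With GFP over no virus 4 of 11 were higher and 0 lower (10.4% and 6.99%). The macrophage list summed to 7239, 9003, 8850, 10059 and 10266 in the order of Fos+/+ spleen, Fos-/- spleen, bone marrow, deltaNFAT and GFP, with bone marrow under Fos-/- spleen. Of its 12 markers 2, the mannose receptor Mrc1 and the scavenger receptor Msr1, had the Angpt1 pattern. The pan-leukocyte list summed to 5852, 5519, 5184, 6447 and 6389 in that order, lowest in bone marrow, and 1 of its 8 markers, Ptprc, had the pattern, at 0.50, -5.70, 80.5, 120 and 109. Of 8 haematopoietic progenitor and megakaryocyte markers on the array, 3 were under the floor everywhere: Tal1, Pf4 and Kit, which marks the progenitors known to carry Tek. The other 5 passed it. Of the 8 markers 1, Gp9, had the Angpt1 pattern, at 33.4, 45.6, 164, 102 and 91.7 in that order. Its call for GFP over no virus was lost after quantile normalization. The part of these cell types in the angiopoietin values was not tested.

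**Figure D5:**
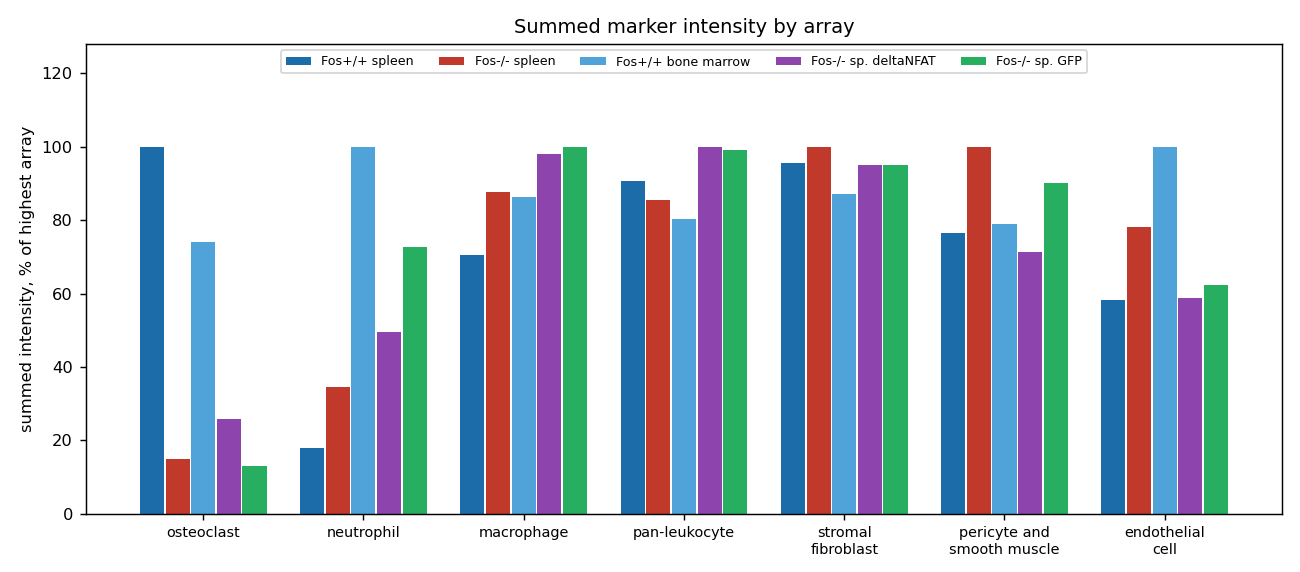
Summed intensity of the markers of 7 cell types in each array, as a percentage of the highest array of that list, with negative values counted as 0 and 1 bar per array. The osteoclast sum is high in the 2 Fos+/+ arrays and the neutrophil sum is lowest in the 2 uninfected spleen arrays, while the stromal fibroblast sum differs little.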

How the data were processed

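The authors deposited 1 linear intensity per probe set and array, and the labels do not name the software behind it. In the deposited intensities the 2% trimmed mean was already 100.0 in every array, and between 20.3 and 22.4% of values were at or below 0. All 5 columns were named by sample, and groups came from the sample titles.

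The arrays were scaled to an equal trimmed mean, floored at the 40th percentile (19.8) and put on a log2 scale with pandas 2.3.3. Of the probe sets, 10833 had 1 symbol (10817 matched RefSeq identifiers, assembly GRCm38.p6, with 0 symbols changed), and a gene was read from its brightest probe set. With 1 array per group no test was possible, and calls are folds of 2 or more. Precision is limited by the number of arrays. The procedure was tested on simulated data in which only genes at 79.2 or more in Fos-/- spleen were changed. Recovery of changes in dimmer genes was not tested.

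The members, the 15 gene lists and the rules were chosen with earlier results of these data known. Named were the 4 genes, the ligands and receptors of both pathways, up to 3 other genes per pathway list with the largest range whose brightest array reached 79.2, and the 5 genes nearest in pattern to each member, with a range of at least 2-fold and the same brightness. Other genes are said to be named after their values were seen, apart from cell type markers. Alternatives were deposited values, quantile normalization, other floors and other ways to combine probe sets.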

Additional observations from a re-analysis of the deposited data

How the results depend on the processing

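Of 112 combinations of a gene, a comparison and an alternative, 107 stayed on the same side of the 2-fold call, and all 5 others concern Angpt2. Its log2 ratio for Fos+/+ over Fos-/- spleen, 2.24, fell to 0.53 at a floor of 65.1 and to 0.048 at a floor of 90.7, the size of the negative values, which was chosen after seeing the data; neither is a call. For bone marrow over Fos+/+ spleen it went from -0.91 to -1.13 after quantile normalization, which made it a call. At a floor of 7.40 (the 30th percentile) deltaNFAT over GFP became -1.14 and GFP over no virus 1.14, both from values under the usual floor. Angpt1 kept its calls at the floors of 65.1 and 90.7, with lower bounds of 3.21-fold and 2.31-fold for bone marrow over spleen and 6.17-fold and 4.43-fold for GFP over no virus. Leaving out suffixed probe sets or averaging them changes nothing for these 4 genes, which have 1 plain probe set each. These combinations are counted in the 112. So are those of the deposited values, whose trimmed means were already nearly equal, and those of Tek, under the usual floor in every array. Much of the count of 107 was thus fixed beforehand and does not measure stability.

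Counts over all genes depend on the floor. At floors of 19.8, 7.40, 65.1 and 90.7, genes higher in Fos+/+ than Fos-/- spleen numbered 329, 516, 139 and 105 and genes lower 321, 505, 125 and 79. For deltaNFAT over GFP they were 180, 381, 37 and 22 higher and 137, 260, 21 and 13 lower. For bone marrow over spleen 693, 1002, 264 and 175 genes were higher and 385, 583, 147 and 101 lower at the 4 floors. For GFP over no virus 534, 778, 235 and 175 were higher and 358, 568, 104 and 60 lower at the 4 floors. Quantile normalization moved the median log2 ratio of bone marrow over spleen from 0.06 to -0.04. No paired analysis was possible because each group had 1 array.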
